A study of Mus musculus with 6 samples.

Results

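Goblet cells, the mucus-secreting cells of the intestinal epithelium, were represented by 751 of the 4890 cell barcodes kept from small-intestinal crypt preparations, out of 13191 barcodes in all. A barcode was kept when it held at least 300 detected genes and at most 25% of its counts on mitochondrially encoded genes. It was called goblet when at least 4 of 7 secreted-protein genes (Muc2, Tff3, Agr2, Zg16, Fcgbp, Spink4 and Clca3) had at least 1 count and when these 7 rule genes together made up 1% or more of its counts. The cells came from freshly isolated crypts of C57BL6 mice aged 10 weeks and were profiled by Drop-seq, in which each cell is lysed in a droplet with a barcoded bead and its polyadenylated RNA is counted from the 3′ end. Mice lacking Ptger4 in epithelial cells (knockout) were set against mice whose Ptger4 was floxed but not recombined (flox), with 3 Drop-seq collections from 2 biological replicates per genotype. No animal or cell was treated, and the sources used here do not give the Cre driver, the deleted part of Ptger4 or how many mice made up a replicate. Collections 1 and 2 of a genotype were taken as biological replicate 1 and collection 3 as biological replicate 2, as their sample codes read. In the goblet barcodes Xist, the X-inactivation RNA of female cells, had 294 counts in knockout collection 3 and 298 in flox collection 3 and at most 8 in each of the other collections, so that this difference and that between biological replicates cannot be told apart.

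Goblet cells make and store the gel-forming mucin Muc2, which is folded and cross-linked in the endoplasmic reticulum (ER), decorated with O-linked sugars in the Golgi and released from apical granules. They arise from secretory progenitors under the transcription factors Atoh1 and Spdef. The product of Ptger4 is EP4, through which prostaglandin E2 raises cyclic AMP, and this prostaglandin is known to promote mucus and fluid release in the gut.

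Of the kept barcodes, goblet barcodes made up 12.2%, 14.4% and 19.2% in knockout collections 1, 2 and 3 and 14.3%, 12.5% and 17.3% in flox collections 1, 2 and 3, with 92, 101, 188, 151, 59 and 160 barcodes in that order. Their median depth was 1732 counts per barcode (range over collections 1536.5 to 2025) against 1206 in the other kept barcodes. Their summed counts per collection ran from 200489 to 583220. One goblet barcode of flox collection 3 held 104905 counts, 19.9% of that collection's goblet counts, and 7 goblet barcodes held over 20000 counts. Barcode sequences were shared between collections in 60 cases, of which 35 lay within knockout collection 1 and flox collections 1 and 2 (set 1) and 23 within knockout collections 2 and 3 and flox collection 3 (set 2), and 11 of the shared sequences were found among goblet barcodes. The labels do not say what links these collections. No doublets were removed.

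The rule genes together held 8.23% of all goblet counts and 0.125% of the counts of the other kept barcodes. These values chose the barcodes and are given as a description. Tff3, a trefoil peptide of the mucus layer, was the most abundant, with 34911, 31574 and 25896 counts per 1000000 counts (CPM) in the 3 knockout collections and 28621, 38551 and 19768 CPM in the 3 flox collections. Zg16, a lectin-like protein that binds bacteria, followed at 19071 CPM over all goblet barcodes, then the protease inhibitor Spink4 at 14868 CPM and Agr2, the disulfide isomerase needed for Muc2 folding, at 9600 CPM. Fcgbp, which is cross-linked to the mucus gel, stood at 3931 CPM, Muc2 at 3756 CPM and Clca3 at 3335 CPM. Clca3 is an older symbol of the gene now called Clca1, a metalloprotease of mucus. Each of the 7 was higher in goblet than in other barcodes in 6 of 6 collections, with CPM ratios from 54.3 (Spink4) to 77.1 (Zg16). Because Drop-seq reads the 3′ end, a gene's count does not grow with its length and CPM were not divided by length.

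All 7 rule genes were detected together in 512 goblet barcodes (68.2%). Tff3 was found in 99.9% of them, Spink4 in 98.7%, Agr2 in 96.4%, Muc2 in 91.7%, Fcgbp in 89.5%, Zg16 in 85.5% and Clca3 in 85.0%. The median barcode carried 8.11% of its counts on the rule genes. By collection the medians were 11.2%, 8.22% and 7.13% in knockout and 8.96%, 10.8% and 5.81% in flox, and the highest single barcode reached 41.8%. Just inside the threshold, 35 barcodes had 1 to 1.5% of counts on the rule genes. Just outside it, 73 barcodes had 4 or more markers but 0.5 to 1%, and 24 barcodes had 1% or more on only 3 markers. Barcodes with under 100 counts, of which there were 3763, carried 1.49% of their counts on the rule genes (1.12 to 2.30% by collection), which is above the 1% threshold. The other kept barcodes had a median of 0.0606%.

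The promoters of Muc2 and Fcgbp are shown because each holds a CAGCTG hexamer, an E-box sequence of the kind bound by basic helix-loop-helix factors such as Atoh1. The windows are the 250 bases before the start in RefSeq's GRCm38.p6 annotation, 5′ to 3′ on the gene's strand, with the hexamer in capitals. Muc2 lies on chromosome 7 (window chr7:141690090-141690339, plus strand) and Fcgbp on the same chromosome (window chr7:28070986-28071235, plus strand).
Muc2: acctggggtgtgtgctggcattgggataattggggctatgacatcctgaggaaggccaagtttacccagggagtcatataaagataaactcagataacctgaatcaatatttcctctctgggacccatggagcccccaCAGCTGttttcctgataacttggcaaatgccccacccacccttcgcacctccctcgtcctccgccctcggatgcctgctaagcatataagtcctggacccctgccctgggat
Fcgbp: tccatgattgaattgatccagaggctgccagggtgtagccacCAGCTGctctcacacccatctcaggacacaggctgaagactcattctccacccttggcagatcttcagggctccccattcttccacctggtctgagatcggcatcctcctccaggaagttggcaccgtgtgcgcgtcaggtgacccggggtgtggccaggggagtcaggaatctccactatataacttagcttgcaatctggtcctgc
The hexamer begins 112 bases before the Muc2 start and 208 bases before the Fcgbp start. It reads the same on both strands and was found in 13.0% of 32851 RefSeq promoters of this length. Among the rule genes and the 30 genes named in the next paragraphs, 25 of 37 had a promoter in the table and 9 of these held it. The TATA sequence TATAAA was found in 4 of the 25 (12.4% of all promoters, either strand), and TGACGT, the core letters of the cyclic AMP response element, in 1 of the 25 (6.47% of all promoters). A match is a description of the letters and not of binding.

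**Figure D1:**
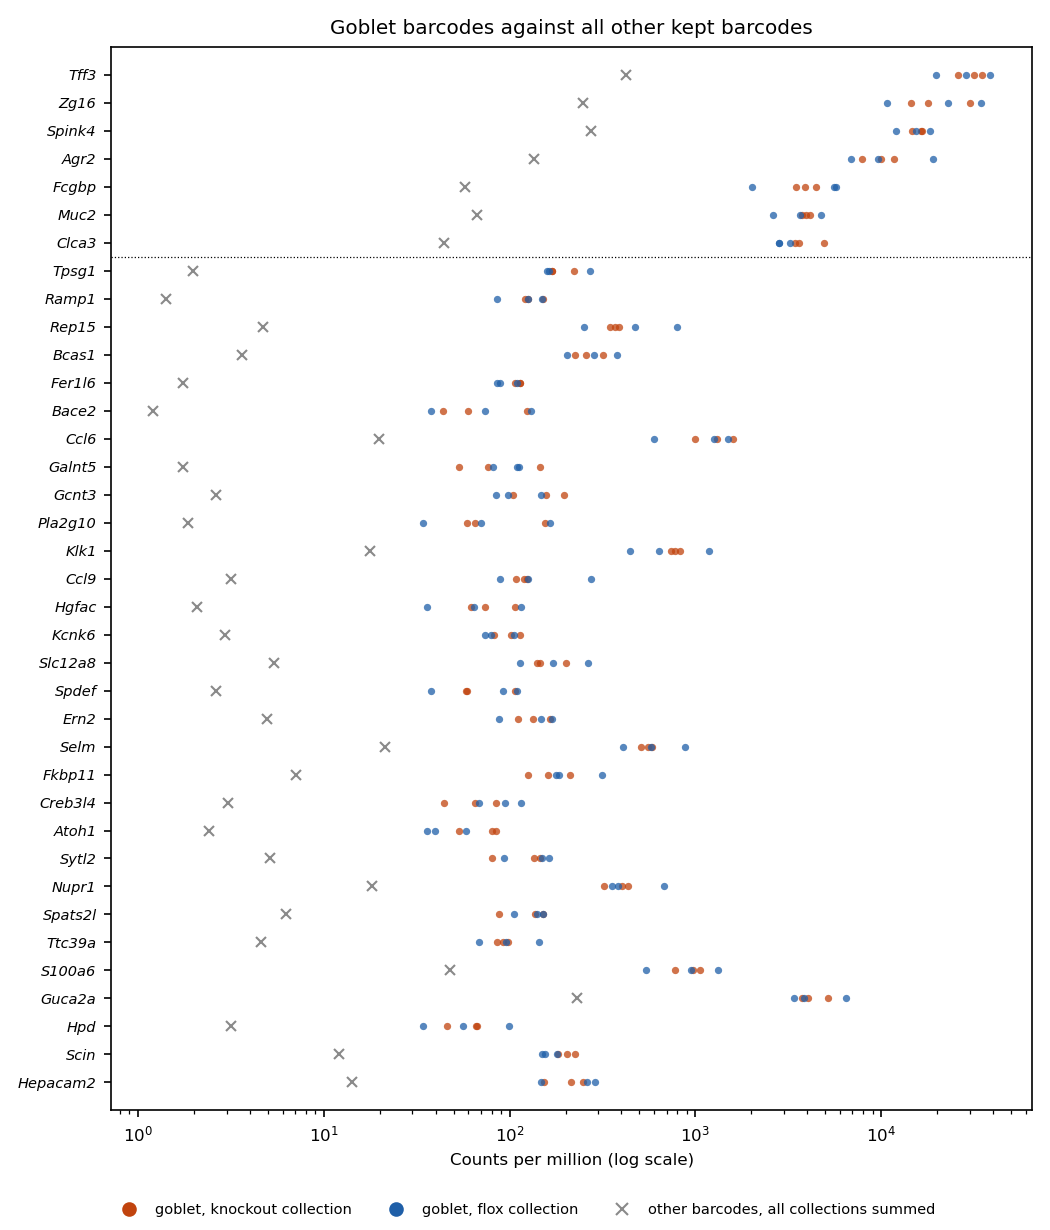
CPM (log scale) of the 7 rule genes (above the dotted line) and the 30 other genes with the highest ratio, summed over goblet barcodes in each knockout and flox collection (points) and over all other kept barcodes (crosses). Each goblet point lies to the right of its gene's cross, and knockout and flox points are interleaved for most genes.

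Goblet barcodes carried a wide set of further genes, among them secreted proteins and genes of granule traffic, protein folding, O-glycosylation and secretory fate. Of 3098 genes at 50 CPM or more in goblet barcodes, 601 (19.4%) were higher than in the other barcodes in 6 of 6 collections and 742 were lower in 6 of 6. Of the genes higher in 6 of 6, 50 (1.61% of the 3098) had a ratio of 10 or more over the summed collections, and 7 of these were the rule genes. This contrast is the one the rule made, so that it carries no test. Tpsg1, the transmembrane tryptase gamma 1, had the highest ratio, 94.9, with 169, 169 and 221 CPM in the knockout collections and 158, 269 and 163 CPM in the flox collections against 1.97 CPM in the other barcodes. The chemokine gene Ccl6 stood at 1109 CPM against 19.7 CPM (ratio 56.2). Guca2a, which encodes guanylin, the peptide that activates guanylate cyclase C and so fluid secretion, was the most abundant of the 30, at 4093 CPM against 232 CPM. The phospholipase Pla2g10 (ratio 40.7), the kallikrein Klk1 (39.5) and the chemokine Ccl9 (39.4) were also among the 30.

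Genes of granule transport and exocytosis were among those with high ratios. Of 26 vesicle-traffic genes at 20 CPM or more in goblet or other barcodes, 18 were higher in goblet barcodes in 6 of 6 collections, with a median log2 ratio of 1.85 (log2 ratios of CPM carry a pseudocount of 5 CPM). Over all 6534 such genes, 13.0% were higher and 22.2% lower in 6 of 6, with a median of -0.12. Rep15, a Rab15 effector, had 387, 370 and 346 CPM in knockout and 474, 793 and 250 CPM in flox against 4.71 CPM in the other barcodes. Fer1l6, of the ferlin family of membrane-fusion proteins, had a ratio of 57.6, the granule protein Sytl2 one of 24.7 and the small GTPase Rab27b, which tethers secretory granules, one of 10.7. Bcas1 stood at 264 CPM against 3.61 CPM. Rab8a was the 1 gene of this list lower in 6 of 6, at 103 CPM against 137 CPM.

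The machinery that folds secreted proteins was higher in nearly all of its genes, by smaller ratios. Of 54 ER folding and unfolded-protein genes at 20 CPM or more (Agr2 left out as a rule gene), 50 were higher in 6 of 6 collections and 0 were lower in 6 of 6, with a median log2 ratio of 0.86. The list without Agr2 summed to 18436 CPM in goblet barcodes (16835 to 22814 CPM by collection) and 10214 CPM in the others (9345 to 10601 CPM). Ern2, the stress sensor IRE1-beta that is specific to mucosal epithelium, stood at 131 CPM against 4.93 CPM. Its widely expressed relative Ern1 stood at 10.4 CPM against 8.11 CPM and was higher in only 3 of 6 collections. The KDEL receptor Kdelr3, which returns ER proteins from the Golgi, had a ratio of 31.3, and the disulfide isomerases Pdia5 and Txndc5 had ratios of 13.2 and 11.8. The general chaperones Hspa5 (2360 against 1130 CPM) and Hsp90b1 (2421 against 1721 CPM) were higher by 2.09-fold and 1.41-fold.

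Most genes of mucin glycosylation were higher too. Of 32 O-glycosylation genes at 20 CPM or more, 29 were higher in 6 of 6 collections and 1 was lower, with a median log2 ratio of 1.12. Galnt5, which starts O-glycan chains by adding the first sugar to the mucin protein, had a ratio of 50.9, and Gcnt3, which branches them, one of 47.9. C1galt1c1, the chaperone of the core 1 enzyme, had a ratio of 6.69 and C1galt1 itself one of 3.28. Enzymes that make the sugar donors had smaller ratios, such as Gfpt1 at 2.86 and Gne at 1.54. The sialyltransferase St3gal4 was the gene lower in 6 of 6, at 227 CPM against 410 CPM. B3gnt6, Galnt2, Gcnt1 and St6galnac1 had 0 counts in goblet barcodes, as did 4511 of all 19178 genes. A count of 0 does not show that a gene is silent in these cells.

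Of the 24 secretory-lineage factors at 20 CPM or more, 15 were higher in 6 of 6 collections, with a median log2 ratio of 0.61. Atoh1 stood at 59.8 CPM against 2.41 CPM, with 53.3, 84.3 and 80.6 CPM in the knockout and 58.0, 39.9 and 36.0 CPM in the flox collections. Spdef stood at 70.2 CPM against 2.63 CPM, Creb3l4 at 76.7 CPM against 3.07 CPM and Creb3l1 at 93.1 CPM against 6.68 CPM. Gfi1, which acts downstream of Atoh1, was detected at 9.10 CPM against 0.657 CPM. Dll1 and Dll4, the Notch ligands by which secretory cells signal to their neighbours, were at 32.9 and 13.9 CPM against 8.43 and 1.75 CPM. Neurog3, the factor of enteroendocrine fate, was at 0.433 CPM against 6.46 CPM.

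Channel and transport genes were split, with 6 of 17 higher and 6 of 17 lower in 6 of 6 collections. The potassium channel Kcnk6 had a ratio of 30.8. Cftr, the chloride channel of crypt fluid secretion, was lower in 6 of 6 (85.8 against 132 CPM), as were its potassium channel partners Kcne3 (80.1 against 144 CPM) and Kcnq1 (29.0 against 57.3 CPM). Of 16 cyclic AMP and immediate early response genes, 9 were higher in 6 of 6 collections and 0 lower in 6 of 6, with a median log2 ratio of 0.58. They included Fos at 1090 against 506 CPM, Egr1 at 1075 against 461 CPM and Klf4, a factor of goblet maturation, at 431 against 106 CPM. Ptger4 itself stood at 28.2 CPM against 14.02 CPM.

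Markers of enterocytes, dividing cells, stem cells and immune cells were mostly lower in the goblet barcodes, and some Paneth cell markers were higher. In 6 of 6 collections 20 of 24 enterocyte, 17 of 23 cycling, 8 of 11 stem, 7 of 7 T and NK and 6 of 6 B and plasma cell markers were lower, and 0 of any of these lists were higher. Lgr5, the crypt-base stem cell receptor, stood at 2.17 CPM against 20.05 CPM, Olfm4 at 7.80 CPM against 63.2 CPM and Cd3e at 1.30 CPM against 12.7 CPM. Of the Paneth cell markers 6 of 18 were higher in 6 of 6 and 0 lower. Their sum ran from 5727 to 29872 CPM in the goblet collections and from 2295 to 5117 CPM in the others. Defa24, a Paneth defensin, stood at 4896 CPM against 1288 CPM, the lectin Itln1 at 809 CPM against 122 CPM and Lyz1 at 690 CPM against 273 CPM. Single goblet barcodes with 1% or more of counts on the Paneth list numbered 175 (23.3%, against 9.23% of the other barcodes), and 11 had 10% or more. The Paneth list includes Ang4, a ribonuclease of Paneth and goblet cells, so that it does not mark Paneth cells alone. The part of such shared genes in the Paneth values was not tested. Stem, tuft, T and NK, B and plasma, myeloid and stromal lists reached 1% in 0 goblet barcodes, enteroendocrine markers in 3 and cycling markers in 41 (5.46%, against 14.9% of the others). Enterocyte markers reached it in 258 goblet barcodes (34.4%, against 39.7% of the others).

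Goblet barcodes differed among themselves in how much of their RNA was mucus RNA. With 1 to 3% of counts on the rule genes there were 129 barcodes, with 3 to 10% there were 311 and with 10% or more 311. From the lowest to the highest band the rule genes rose from 18627 to 167437 CPM by construction, which leaves less of the total for every other gene. The ER folding list without the rule gene Agr2 went from 13302 to 17979 to 23079 CPM, with collection ranges of 11605 to 13783 CPM in the lowest band and 20817 to 26037 CPM in the highest. The O-glycosylation list went from 2863 to 4297 to 6057 CPM and the vesicle-traffic list from 1587 to 2599 to 4668 CPM. The cycling list ran the other way, from 5290 to 3738 to 1343 CPM, with collection ranges of 2763 to 6139 CPM in the lowest band and 1106 to 1708 CPM in the highest. Mki67, a marker of dividing cells, went from 812 to 571 to 217 CPM. Guca2a went from 1153 to 3215 to 7674 CPM and Ccl6 from 230 to 775 to 2287 CPM.

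Paneth markers followed a different course over the bands. Their sum was 34254 CPM in the lowest band, 5231 CPM in the middle and 9575 CPM in the highest. In the lowest band it ranged from 3793 CPM to 221194 CPM between collections, and the highest value came from flox collection 2, which had 9 barcodes there. The 11 barcodes with 10% or more of counts on Paneth markers had a median of 2% on the rule genes. Their part in the lowest band was not tested.

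**Figure D2:**
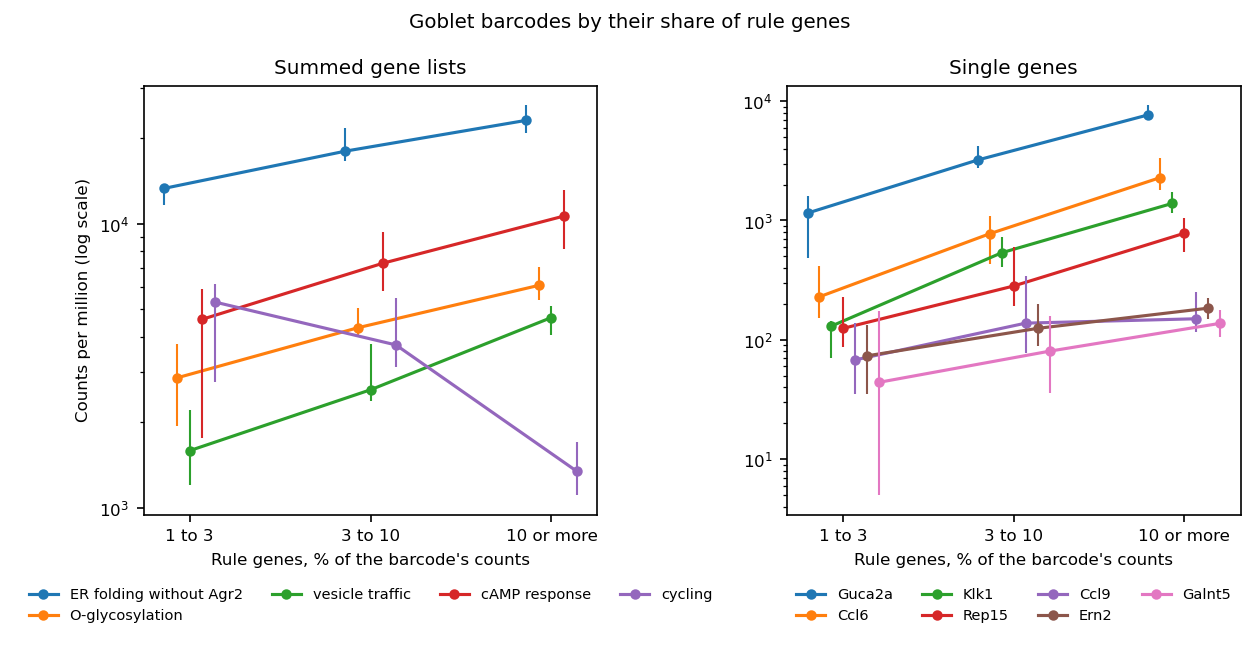
CPM (log scale) of summed gene lists (left) and single genes (right) in goblet barcodes grouped by the percent of their counts on the rule genes. Points are all collections summed and bars run from the lowest to the highest collection (drawn from 5 CPM where the lowest was 0), and of the lists and genes drawn the cycling list is the 1 that is lower in the highest band than in the lowest, at 1343 against 5290 CPM.

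A pair of states within the goblet barcodes was described by Ccl9, Ern2 and Galnt5 on one side and Klk1, Rep15 and Zg16 on the other. The state genes were read from these data, so that they carry no test. The Galnt5 and Ccl9 promoters are shown because, of the state genes, both hold the E-box hexamer of the Muc2 and Fcgbp promoters. The windows are again the 250 bases before the RefSeq start (GRCm38.p6, chr2:57997905-57998154 on the plus strand for Galnt5 and chr11:83578637-83578886 on the minus strand for Ccl9), 5′ to 3′ on the gene's strand, with CAGCTG in capitals.
Galnt5: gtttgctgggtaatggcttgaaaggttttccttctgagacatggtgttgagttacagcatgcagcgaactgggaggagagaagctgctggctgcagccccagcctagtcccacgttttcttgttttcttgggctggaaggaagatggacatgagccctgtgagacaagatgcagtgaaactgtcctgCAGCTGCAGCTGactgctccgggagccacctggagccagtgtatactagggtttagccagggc
Ccl9: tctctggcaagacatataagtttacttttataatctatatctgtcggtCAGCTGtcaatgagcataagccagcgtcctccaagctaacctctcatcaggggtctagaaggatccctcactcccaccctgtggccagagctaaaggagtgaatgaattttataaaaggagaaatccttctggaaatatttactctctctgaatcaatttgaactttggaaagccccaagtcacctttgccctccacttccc
Galnt5 holds the hexamer in tandem, beginning 63 and 57 bases before the RefSeq start, and Ccl9 holds it 202 bases before the start. In the GENCODE annotation of GRCm38 Galnt5 starts at 57997884. The Galnt5 window and both of its hexamers thus lie inside the gene by that annotation and not upstream of it.

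The Ccl9 side was sparse. Summed over all goblet barcodes there were 289 counts of Ccl9, 302 of Ern2 and 206 of Galnt5, against 1620 of Klk1, 918 of Rep15 and 44031 of Zg16. At least 1 count of Ccl9, Ern2 or Galnt5 was found in 371 goblet barcodes (49.4%), and 91.1% of these also had a count of Klk1, Rep15 or Zg16. After each barcode was thinned to 1000 counts, which left 554 goblet and 2412 other barcodes, Ccl9 was detected in 10.1% of goblet barcodes, Ern2 in 13.5% and Galnt5 in 9.93%, against 0.249%, 0.290% and 0.249% of the others. Klk1 was detected in 48.4%, Rep15 in 33.2% and Zg16 in 83.0%, against 1.66%, 0.332% and 15.9%. In 127 other barcodes with T and NK cell markers, which should lack these genes, the 3 genes of the Ccl9 side had 1 count in all, at a median depth of 773 counts.

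Over the 554 thinned goblet barcodes the genes of the Klk1 side varied together, with Pearson's r of 0.24 for Klk1 and Rep15, 0.33 for Klk1 and Zg16 and 0.32 for Rep15 and Zg16. The genes of the Ccl9 side did not, with r from -0.01 to 0.05, and between the sides r ran from -0.06 to 0.13. These are descriptions over barcodes that share libraries and depth. Zg16 is also a rule gene, so that its counts helped to choose the barcodes. The part of the rule-gene share in these r values was not tested. Along the bands of rule-gene share both sides were higher in the highest band than in the lowest. Klk1 went from 130 to 537 to 1389 CPM and Rep15 from 125 to 283 to 780 CPM, while Ccl9 went from 67.9 to 138 to 150 CPM, Ern2 from 73.5 to 125 to 184 CPM and Galnt5 from 44.1 to 80.3 to 137 CPM. No pair of genes across the sides had r below -0.06, and the sides are used here as a range and not as types.

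**Figure D3:**
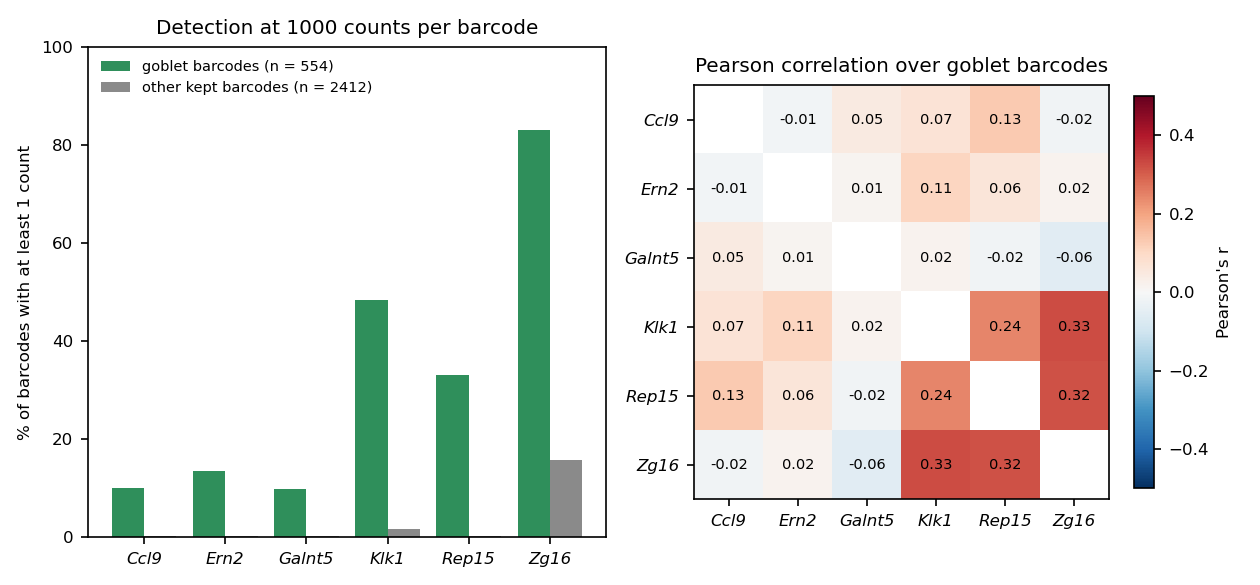
Left, percent of barcodes with at least 1 count of each state gene after thinning to 1000 counts (bars start at 0). Right, Pearson's r between the state genes over the thinned goblet barcodes, where the 3 pairs among Klk1, Rep15 and Zg16 lie between 0.24 and 0.33 and all other pairs at or under 0.13.

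When each gene's share of a barcode's counts was divided by its mean and summed for each side, 270 barcodes leaned to Ccl9, Ern2 and Galnt5, 456 to Klk1, Rep15 and Zg16 and 25 to neither. The scores of 147 barcodes lay within 0.5 of each other, and 355 of the 456 had no count of the Ccl9 side at all. Barcodes leaning to the Ccl9 side were deeper, with a median of 2047.5 counts against 1632.5, and had a median of 6.49% of counts on the rule genes against 9.74%. Zg16, which scores the Klk1 side, is also a rule gene and held 23.2% of the rule-gene counts. The difference in rule-gene share is therefore in part built into the score. Of 3381 genes at 50 CPM or more on either side, 248 (7.34%) were higher on the Ccl9 side in 6 of 6 collections and 95 (2.81%) were higher on the Klk1 side. After thinning, 48 and 74 of 3537 genes were, and without the 7 barcodes over 20000 counts the counts were 207 and 97 of 3353.

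Genes of dividing cells were among those higher on the Ccl9 side, but not after thinning. Of 24 cycling markers at 20 CPM or more, 9 were higher there in 6 of 6 collections and 0 lower in 6 of 6, with a median log2 ratio of 0.65 (all genes 0.12, with 5.8% higher and 2.37% lower in 6 of 6). Racgap1, a regulator of cytokinesis, stood at 61.3 CPM against 17.8 CPM, the condensin subunit Ncapg at 57.5 CPM against 21.9 CPM, Stmn1, a regulator of microtubules, at 155 CPM against 64.0 CPM and the DNA ligase Lig1 at 150 CPM against 72.1 CPM. After thinning, 0 of 20 cycling markers were higher in 6 of 6 and 2 were lower, where 0.766% of all genes were higher and 1.68% lower. The log2 ratio of Ncapg then stood at -0.09, that of Stmn1 at 0.15, that of Lig1 at -0.03 and that of Racgap1 at 1.74. The other genes with the largest ratios before thinning were Cep250, C1qbp, Atad2, Dhx36, D17H6S56E-5, Psip1, Nob1, Vezf1, Med13l, Cmc2 and Kpna3, at log2 ratios from 0.97 to 1.46 without thinning.

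Some secreted products and enterocyte genes were higher on the Klk1 side, and nearly all of these calls were lost after thinning. Of 24 mucus and secreted-protein genes, 9 were higher there in 6 of 6 collections and 0 on the Ccl9 side (1 and 0 after thinning), and of 19 enterocyte markers 6 and 0 were (0 and 0 of 20 after thinning). The median log2 ratio of the mucus list, which holds rule genes, was -0.48 and turned to 0.08 with thinning, and that of the enterocyte list was -0.55 and -0.44. Apoa1, an apolipoprotein of absorptive cells, stood at 74.7 CPM on the Ccl9 side and 347 CPM on the Klk1 side, the disaccharidase Sis at 78.6 CPM and 148 CPM, and the dipeptidase Cndp2 at 46.9 CPM and 123 CPM. Cndp2 kept its direction in 6 of 6 collections after thinning, at a log2 ratio of -0.73. Ccl6 stood at 682 CPM and 1484 CPM and Ramp1, a partner of the calcitonin receptor-like receptor, at 78.6 CPM and 156 CPM. After thinning these had log2 ratios of -0.26 and -0.05. The others with the largest ratios before thinning were Gsta1, Gsta4, Spink3, Sowaha, Sepp1, Clec2h, Fam3b, Gde1, H2-Q2 and Ppm1a, at log2 ratios from -1.55 to -0.85 without thinning. The ER folding list had 2 of 54 genes higher on the Ccl9 side and 0 on the Klk1 side, with a median of 0.00 (3 and 0 of 54, median 0.27, after thinning).

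The share of goblet barcodes differed between knockout and flox by less than the spread between replicates. Summed per biological replicate, goblet barcodes were 16.2% ± 4.18 of kept barcodes in knockout and 15.5% ± 2.49 in flox (SD, n = 2), a difference of 0.685 percentage points (exact two-sided permutation p = 1.0, where the smallest possible is 0.333). Without knockout collection 3 the difference was -2.27 percentage points, within set 1 -1.56 and within set 2 -0.51. Of the leaning goblet barcodes, 34.4%, 36.0% and 36.0% leaned to the Ccl9 side in the knockout collections and 39.5%, 37.3% and 38.8% in the flox collections. The mean was 35.6% ± 0.489 in knockout and 38.8% ± 0.0135 in flox (SD, n = 2), a difference of -3.22 percentage points (exact two-sided permutation p = 0.333, the smallest possible). With raw counts compared in place of scaled ones the shares were 8.10% and 4.31%, and after thinning they were 29.2% ± 4.78 and 30.5% ± 7.53.

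Mt1, which encodes a metallothionein (cysteine-rich proteins that bind metal ions), was the gene that rose in knockout goblet barcodes. Knockout collections 1, 2 and 3 had 853, 1048 and 1058 CPM of Mt1, and flox collections 1, 2 and 3 had 224, 284 and 174 CPM. The lowest knockout collection lay above the highest flox collection by a wide margin. Per biological replicate it was 1009 ± 69.1 CPM in knockout and 208 ± 47.3 CPM in flox (SD, n = 2), a log2 fold change of 2.29 (SE 0.25, edgeR quasi-likelihood adjusted p = 0.00511). Of 6540 genes tested, 1 rose (0.0153%) and 0 fell, and 117 (1.79%) had an unadjusted p under 0.05. DESeq2 also called 1 gene, Mt1. Without flox collection 1 the fold change was 2.12 and the adjusted p = 0.717 (edgeR), which ended the call. Adjusted p ranged from 1.11e-14 to 0.717 over the alternatives with a test (edgeR or DESeq2), and 21 of 22 fits, the one reported included, called it. Collection 3 is the whole of biological replicate 2, so that leaving out either gave the same fit, counted under both names. The log2 fold change was 2.25 without it in knockout and 2.07 without it in flox. Some other fits took the collections as samples, although collections 1 and 2 share a biological replicate. The tally is therefore not one of independent checks. Within set 1 of the collections that share barcode sequences the log2 fold change was 1.86 and within set 2 it was 2.55, both without a test. Fits without knockout collection 3, flox collection 3 or flox biological replicate 1 left 1 biological replicate in an arm and called further genes. Each of them called genes of the Paneth list, and those without knockout or flox collection 3 called Xist. The parts of Xist-bearing cells and of Paneth RNA in these further calls were not tested. The fit without flox collection 1 called 0 genes. The p-values measure the spread between these samples.

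The Mt1 difference ran through the goblet population. Mt1 was detected in 66.3%, 74.3% and 76.1% of goblet barcodes in the knockout and in 33.1%, 39.0% and 25% in the flox collections. At 1000 counts per barcode the shares were 56.2%, 75% and 60.1% against 21.2%, 18.6% and 13.3%. No single barcode held more than 15.8% of a collection's Mt1 counts. In 127 barcodes with T and NK markers, at a median depth of 773 counts, 5.51% had a count of Mt1. In the band with 1 to 3% of counts on the rule genes the knockout collections had 948, 929 and 852 CPM and the flox collections 217, 414 and 184 CPM. In the band of 10% or more they had 721, 1046 and 1025 CPM against 227, 146 and 162 CPM. On the Ccl9 side Mt1 stood at 1060, 1017 and 948 CPM in knockout and 212, 404 and 137 CPM in flox, and on the Klk1 side at 721, 1075 and 1168 CPM and 232, 206 and 230 CPM. The collections of the genotypes did not overlap in any of these 4 subsets. The bands and the sides are drawn from the same goblet barcodes, so that the 4 subsets are not separate checks. In the band of 1 to 3% there were 11, 15 and 28 barcodes in the knockout and 32, 9 and 34 in the flox collections.

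The other kept barcodes differed in Mt1 in the same direction, with 1261, 1197 and 1536 CPM in knockout and 267, 239 and 356 CPM in flox. The log2 genotype difference in goblet barcodes minus that in the other barcodes was 0.07 with an SE of 0.23 (adjusted p = 1.0 by edgeR), so that the Mt1 difference was not shown to be particular to goblet barcodes. Mt2, the neighbouring metallothionein gene, had 44.4, 62.3 and 70.3 CPM in knockout and 54.0, 140 and 32.2 CPM in flox goblet barcodes. These overlapped, with a log2 fold change of 0.16 (SE 0.41, edgeR adjusted p = 1.0). Of 12 metallothionein and zinc-transport genes tested, Mt1 was the 1 that passed, 5 had values above 0 and the median log2 fold change was -0.10. The zinc transporter Slc39a14 had 75.5, 58.7 and 49.7 CPM against 28.0, 24.9 and 32.2 CPM, without overlap, and a log2 fold change of 0.99 (SE 0.37, edgeR adjusted p = 1.0). Slc39a8, another zinc transporter, was the 1 member lower without overlap, with 13.3, 33.0 and 25.7 CPM against 34.0, 54.9 and 45.5 CPM and a log2 fold change of -0.74 (SE 0.39, edgeR adjusted p = 1.0). Without overlap, 2 of the 12 were thus higher (Mt1 included) and 1 lower, where 3.15% of all 6540 tested genes were higher and 3.58% lower. The share in so short a list was not tested.

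The Mt1 and Mt2 promoters are set side by side because Mt1 passed the test and its neighbour on chromosome 8 did not. Mt1 spans 94179082 to 94180327 and Mt2 94172664 to 94173568 on the plus strand in the GENCODE annotation of GRCm38. The windows are the 250 bases before the RefSeq starts (GRCm38.p6, chr8:94178839-94179088 for Mt1 and chr8:94172368-94172617 for Mt2, plus strand), with TGCACNC or TGCGCNC, the core letters of the metal response element, in capitals on either strand.
Mt1: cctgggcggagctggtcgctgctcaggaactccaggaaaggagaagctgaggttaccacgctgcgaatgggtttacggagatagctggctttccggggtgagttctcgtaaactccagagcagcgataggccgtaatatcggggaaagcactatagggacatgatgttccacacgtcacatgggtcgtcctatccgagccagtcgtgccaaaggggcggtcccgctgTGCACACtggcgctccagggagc
Mt2: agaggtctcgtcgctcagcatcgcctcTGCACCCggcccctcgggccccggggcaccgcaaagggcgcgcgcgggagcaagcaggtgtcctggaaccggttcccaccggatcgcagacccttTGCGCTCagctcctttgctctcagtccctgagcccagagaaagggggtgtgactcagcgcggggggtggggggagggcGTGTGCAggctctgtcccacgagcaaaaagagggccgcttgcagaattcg
Mt1 holds 1 such match, 23 bases before its start, and Mt2 holds 3, at 223, 128 and 50 bases before its start. The Mt1 window ends at 94179088, inside the GENCODE gene, and the Mt2 window at 94172617, short of the GENCODE start at 94172664. The windows are thus placed unlike each other, letters outside them were not searched, and the match counts do not compare the promoters. Either form occurs in 21.4% of RefSeq promoters of this length.

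**Figure D4:**
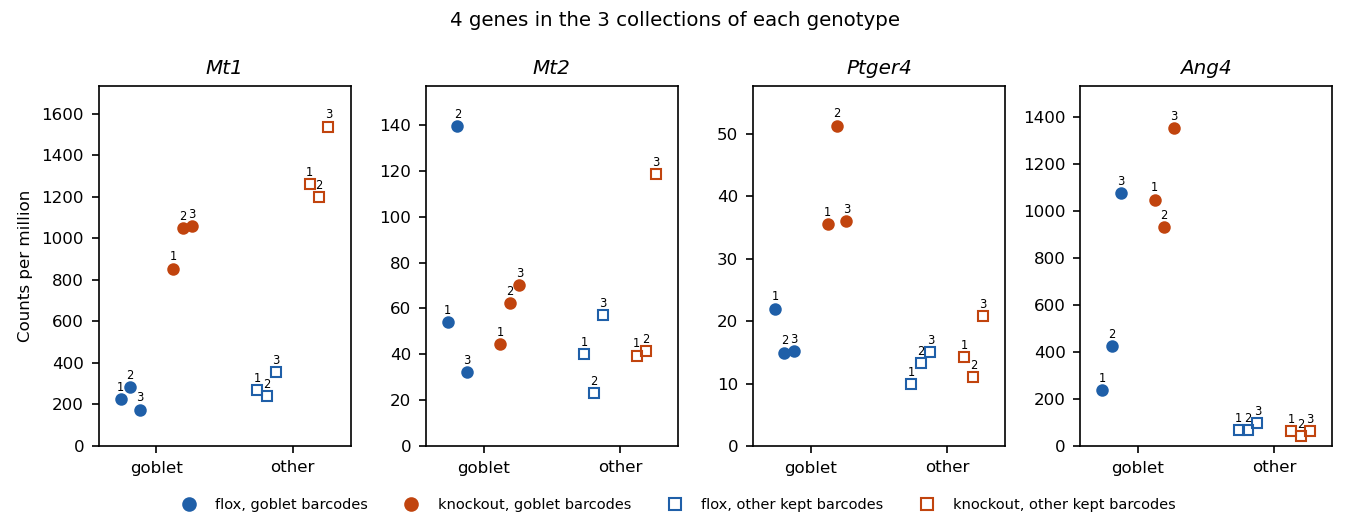
CPM of Mt1, Mt2, Ptger4 and Ang4 in goblet barcodes (filled circles) and in all other kept barcodes (open squares), 1 point per collection, with the collection number beside it. In Mt1 the knockout goblet points lie between 853 and 1058 and the flox goblet points between 174 and 284.

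Ptger4 transcripts were not lower in the knockout goblet barcodes. They had 8, 14 and 21 counts in the knockout and 11, 3 and 8 counts in the flox collections, which are 35.5, 51.3 and 36.0 CPM against 22.0, 14.96 and 15.2 CPM. The knockout collections were the higher ones without overlap, with a log2 fold change of 1.18 (SE 0.44, edgeR unadjusted p = 0.0187, adjusted p = 1.0). Counts taken at the 3′ end need not cover the deleted part, so that this gives no check of the deletion. In the other kept barcodes the values overlapped, at 14.2, 11 and 20.8 CPM against 9.92, 13.3 and 15.1 CPM.

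None of the state genes that are no rule genes passed the test between genotypes (edgeR). The rule genes chose the barcodes in both genotypes, so that their values here are a description. They had log2 fold changes from -0.02 (Agr2) to 0.45 (Clca3). Clca3 had 4945, 3435 and 3618 CPM in knockout against 2829, 3237 and 2800 CPM in flox, without overlap. Muc2 had 3923, 4161 and 3755 CPM against 4712, 3646 and 2610 CPM, which overlapped (log2 fold change 0.17). The state genes that are no rule genes had values from -0.26 (Galnt5) to 0.33 (Klk1). Of 21 mucus and secreted-protein genes tested that are no rule genes, 13 had values above 0, with a median log2 fold change of 0.08, and 0 passed. The ER folding list without Agr2 had 37 of 54 above 0 (median 0.03), O-glycosylation 16 of 33 (median -0.01), vesicle traffic 20 of 27 (median 0.03), the secretory factors 13 of 24 (median 0.01) and the cyclic AMP response genes 8 of 15 (median 0.09), and 0 passed in each. Over all tested genes 3198 of 6540 were above 0 and the median was -0.01.

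Other genes are given as values, chosen by the smallest unadjusted p and with adjusted p = 1.0 (edgeR) throughout. Higher in knockout were Nme2, a nucleoside diphosphate kinase, with 164, 169 and 166 CPM against 64.0, 110 and 87.2 CPM (log2 fold change 1.04, SE 0.26), and Phc3, a Polycomb protein, with 39.99, 36.7 and 37.7 CPM against 14, 9.98 and 19.0 CPM (1.29, SE 0.45). Sepw1, a selenoprotein (1.11), Mpv17l2 (1.37), Tdrd7 (1.35), Rbm15 (1.70) and Vaultrc5, a vault RNA (0.80), had the other small p-values in this direction. Lower were Apobec3, a cytidine deaminase that restricts retroviruses, with 8.89, 22.0 and 20.6 CPM against 48.0, 24.9 and 64.5 CPM (-1.47, SE 0.43), and Triap1, with 26.7, 11 and 32.6 CPM against 52.0, 49.9 and 68.2 CPM (-1.18, SE 0.40). Fam110a (-1.76), Fbxw11 (-1.58), Wiz (-1.52), Slc4a4, a bicarbonate transporter (-1.08), Setd3 (-1.02) and Ipo5, an importin (-0.997), followed. Of all tested genes 206 (3.15%) were higher and 234 (3.58%) lower in knockout without overlap between the collections (6.73% in all).

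A test of whether the genotype difference in goblet barcodes differed from that in the other kept barcodes passed for 5 of 9352 genes (0.0535%), which are named here after their values were seen. Leaving out single collections or replicates gave 1 to 29 genes, with 1 without knockout collection 1, knockout collection 2 or flox collection 1 and 29 without flox biological replicate 1. Ang4, an antimicrobial ribonuclease of Paneth and goblet cells, had 1049, 931 and 1353 CPM in knockout and 238, 424 and 1077 CPM in flox goblet barcodes, and 40.4 to 96.0 CPM in the other barcodes of the 6 collections. It was found in 308 goblet barcodes (41.0%) and in 11 of the 127 barcodes with T and NK markers (8.66%, median depth 773 counts). How much of the Ang4 in goblet barcodes came from other cells was not tested. The goblet values of the genotypes overlapped, with a log2 fold change of 0.81 (SE 0.43, edgeR adjusted p = 1.0) within the goblet barcodes. The difference from the other barcodes was 1.48 (SE 0.27, edgeR adjusted p = 0.00799). It was not called without knockout collection 1, knockout collection 2, flox collection 1, flox biological replicate 1 or the shared barcode sequences (adjusted p from 0.0728 to 0.587), and in flox collection 2 a single barcode held 57.6% of the Ang4 counts. The sum of the Paneth list, which includes Ang4, was 5727, 8553 and 18400 CPM in knockout and 15059, 29872 and 5842 CPM in flox goblet barcodes, and its part in the Ang4 difference was not tested. The other 4 were the enteroendocrine hormone genes Sct, Cck, Gcg and Pyy, each with a smaller knockout value, relative to flox, in goblet than in other barcodes. Among the other barcodes, 84 had 1% or more of counts on enteroendocrine markers. The sum of these markers in the other barcodes ran from 569 to 2619 CPM by collection. Their part in the 4 calls was not tested. Within the goblet barcodes Sct had a log2 fold change of -0.16. Sct, the secretin gene, was found in 176 goblet barcodes (23.4%) and in 0 of the 127 barcodes with T and NK markers (median depth 773 counts), which allows a share of up to 2.36% there. By contrast Gcg was found in 10, Cck in 6 and Pyy in 2 goblet barcodes.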

How the data were processed

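The deposited tables hold raw counts per gene and cell barcode for 6 Drop-seq collections (19178 genes). Reads were aligned with STAR 2.6 to mm10, per the submitters' processing notes. The gene annotation, the barcode rule and how molecular identifiers were collapsed are not stated there (not given in the sources used here). Barcodes were kept and called goblet by the rule in the text, doublets were neither called nor removed, and the members, gene lists and tests were chosen with earlier results of these data known. Counts were summed over goblet barcodes per biological replicate and tested in edgeR 4.0.16 (R 4.3.3; filterByExpr with a minimum count of 10, TMM, quasi-likelihood test, Benjamini-Hochberg adjusted p under 0.05). The difference between goblet and other barcodes was tested as an interaction within samples. DESeq2 1.42.0 was an alternative, and the scripts were tested on simulated data. Shares were compared by exact permutation. CPM values are sums over barcodes per 1000000 counts, standard errors are on the log2 scale, and log2 ratios of list and state genes used a pseudocount of 5 CPM. Barcodes were thinned to 1000 counts where stated. The upper limit given for Sct covers counting error only, and the ± values of goblet and state shares are SDs over biological replicates. Genes named were the 30 highest ratios at 50 CPM or more and higher in 6 of 6 collections, up to 15 per state and, between genotypes, those passing the test, filled to 8 per direction by unadjusted p. Promoters are from RefSeq (GRCm38.p6). Alternatives on very deep, shared or Paneth-rich barcodes and on the sets were chosen after seeing the data.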

Additional observations from a re-analysis of the deposited data

Results flagged for a closer look

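For 5 genes the knockout against flox difference in goblet barcodes differed from that in the other kept barcodes by edgeR's interaction test, given here as the log2 fold change in goblet barcodes minus that in the others. Ang4 had 1.48 (edgeR adjusted p = 0.00799), with 1049, 931 and 1353 CPM in knockout and 238, 424 and 1077 CPM in flox goblet barcodes. Sct had -1.86 (edgeR adjusted p = 0.00799). Its goblet values were 93.3, 165 and 113 CPM in knockout and 152, 204 and 108 CPM in flox, while the other barcodes had 63.9, 84.5 and 47.0 CPM against 14.3, 30.2 and 20.1 CPM. Gcg had -6.31 (edgeR adjusted p = 2.12e-05), and 46 of its 49 counts in flox collection 1 lay in 1 goblet barcode. Cck had -5.19 (edgeR adjusted p = 0.00541), and 15 of its 16 counts in flox collection 1 lay in 1 goblet barcode. Pyy had -9.29 (edgeR adjusted p = 0.0121) on 10 goblet counts, 9 of them in 1 barcode. Without flox collection 1, or without flox biological replicate 1, none of the 5 was called. Sct was also not called without knockout collection 1, knockout collection 2 or knockout biological replicate 1 (edgeR adjusted p from 0.0714 to 0.587 over all its lost calls). Cck was not called in the same fits and turned to 1.02 without flox biological replicate 1. Pyy was also not called without any 1 knockout collection or without the shared barcode sequences, and its value was -1.97 without flox collection 1 and -3.71 without flox biological replicate 1. Gcg was -3.96 (edgeR adjusted p = 0.456) and -2.44 (edgeR adjusted p = 0.855) without these. The fitted sizes of Gcg, Cck and Pyy rest on 0 to 2 counts in each knockout collection.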

How the results depend on the processing

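Of the counts and shares, those named here moved with the processing. With no filter on low counts edgeR called 3 genes between genotypes (2 higher, 1 lower) in place of 1, and leaving out single collections or replicates gave 0 to 22. The interaction test called 9 genes in place of 5 with no filter, 3 without shared barcode sequences and 1 to 29 with collections or replicates left out. Thinning took the genes of either state from 343 to 122. The difference in goblet share turned to -1.56 within set 1, -0.51 within set 2 and -0.515 within biological replicate 1, and ran from -2.27 to 3.64 percentage points with collections or replicates left out. The Ccl9 side's share turned to a difference of 3.79 percentage points with raw counts. The cause was not tested in these cases. Among single genes, Vaultrc5 turned to -0.86 within set 1. Mt2 turned to -0.14 over 6 collections as samples, -0.072 with the collection number as a replicate block, -0.71 within set 1 and -0.49 within biological replicate 1, and ran from -0.33 to 0.999 with collections or replicates left out. The Mt1 interaction ran from -0.37 to 0.63 and the Cck interaction from -10.4 to 1.02 in those fits.

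With the biological replicate block Mt1 had a log2 fold change of 2.31 (edgeR adjusted p = 0.00179) and with the collection number as a replicate block 2.14, with 1 call each. Deviations of same-numbered collections correlated at -0.16, -0.16 and 0.12, so that the numbers were not taken as pairs. Leaving out a biological replicate leaves an arm whose spread is taken from the other. Limits are the 2 replicates per genotype, low counts of Ccl9, Ern2, Galnt5 and Ptger4, and unresolved doublets.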
